A study of Mus musculus with 12 samples.

Results

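Scd1 encodes stearoyl-CoA desaturase, the enzyme that places a double bond in saturated fatty acids. Pooled over the 4 groups, its mRNA differed more between hearts of one group than that of nearly all other genes in these data. Its values are given here heart by heart beside those of 8 genes known as markers of fat tissue: Adipoq, Plin1, Fabp4, Ucp1, Cidea, Cfd, Retn and Car3. These 9 genes were matched by symbol among the 24062 in the count table, and all 9 were found. Scd1 was selected on its spread between these same hearts, and the markers were chosen by what earlier results of these hearts had shown, so their spread and their likeness to Scd1 are descriptions and carry no test. The question was whether Scd1 followed the fat markers from heart to heart within a group.

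The 12 libraries were polyA RNA from whole hearts, 1 mouse each, in 4 groups of 3. WT mice and KI/KI mice were 2 months old, and KI/KI mice were homozygous in every tissue for the Lemd2 c.T38>G knockin, a change in a protein of the inner nuclear membrane. Lemd2-floxed mice and Lemd2 cKO mice were taken at postnatal day 1 (P1). Both carried the floxed Lemd2 allele, and cKO mice also carried Myh6-Cre, which the alpha-myosin heavy chain promoter drives in cardiomyocytes, so other cells of the heart, fat cells included, kept Lemd2. The adult KI/KI hearts were compared with WT hearts and the P1 cKO hearts with floxed hearts. Age, mouse line and genotype scheme differ together between the models and cannot be told apart.

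White fat cells store triglyceride in 1 large droplet and release hormones, whereas brown fat cells hold many small droplets and burn fatty acids to make heat. In mice, fat lies around the base of the heart and the great vessels, and brown fat lies along the aorta in the chest. Fat tissue makes Scd1 in large amounts, because the desaturase supplies the monounsaturated fatty acids that go into triglyceride. Among the markers, Adipoq (adiponectin), Retn (resistin) and Cfd (adipsin, or complement factor D) are proteins that fat cells secrete, Plin1 (perilipin 1) coats their lipid droplets, and Car3 is a cytosolic carbonic anhydrase of fat, liver and skeletal muscle. Ucp1, the mitochondrial uncoupling protein, defines brown fat, and Cidea is a lipid droplet protein best known from brown fat. Fabp4 carries fatty acids in fat cells and is also made by capillary endothelium and macrophages.

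The genes lie apart in the genome. On GRCm38, the assembly also called mm10, Scd1 runs on the minus strand of chromosome 19 from 44394455 to 44407879, next to its paralogs Scd2, Scd3 and Scd4 in a cluster that spans 204611 bases. Adipoq is on chromosome 16 from 23146536 to 23158028, Plin1 on chromosome 7 from 79720218 to 79732903, Cfd on chromosome 10 from 79890853 to 79892655, Ucp1 on chromosome 8 from 83290352 to 83298452 and Retn on chromosome 8 from 3655770 to 3660110. Fabp4 lies on chromosome 3 from 10204088 to 10208576 and Car3 on the same chromosome from 14863512 to 14872523. Of the 9 genes, Adipoq, Plin1, Cfd, Retn and Ucp1 had a promoter in the RefSeq-derived table for GRCm38.p6. The 250 bases before the start of Adipoq and Plin1 are shown because Plin1 followed Adipoq more closely from heart to heart than any other gene tested. Capitals mark CCAAT on either strand (in Adipoq) and TTGCNNAA on either strand, a form of the C/EBP site (in Plin1).
Adipoq, chr16:23146286-23146535, plus strand, 5′ to 3′: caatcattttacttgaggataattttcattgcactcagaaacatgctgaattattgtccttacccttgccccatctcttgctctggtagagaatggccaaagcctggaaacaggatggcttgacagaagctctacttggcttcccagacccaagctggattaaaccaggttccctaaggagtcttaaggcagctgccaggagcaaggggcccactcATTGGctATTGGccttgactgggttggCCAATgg
Plin1, chr7:79732777-79733026, minus strand, 5′ to 3′: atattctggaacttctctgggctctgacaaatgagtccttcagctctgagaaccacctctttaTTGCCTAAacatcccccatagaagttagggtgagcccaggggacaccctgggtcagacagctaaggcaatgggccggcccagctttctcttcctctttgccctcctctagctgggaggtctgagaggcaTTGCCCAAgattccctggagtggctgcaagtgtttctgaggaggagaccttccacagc
The Adipoq sequence held CCAAT 3 times, at bases 34 to 30, 27 to 23 and 7 to 3 before the start, and 33.8% of the 32851 mouse promoters held it at least once in a window of this length. The Plin1 sequence held TTGCNNAA at bases 187 to 180 and 58 to 51, and 9.56% of promoters held it. The start used for the Plin1 window is that of the promoter table and lies inside the gene span given above. The window begins at 79732777 and the span ends at 79732903, so part of it, with the site at 58 to 51, is within that span. AGGTCA, the half-site bound by PPAR and other nuclear receptors, was present in 14% of promoters and, among these 5 genes, in the Ucp1 window, at bases 14 to 9. TATAAA was in 12.4% of promoters and in none of the 5 windows.

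Total counts ran from 37063669 to 44789753 reads per heart, and values are given as counts-per-million (CPM) values after TMM scaling over the 12 hearts. At these depths 3 counts, taken as the floor, are between 0.0670 and 0.0809 CPM, which covers counting error only. The summed level of 6 heart muscle genes was between 36244 and 77190 CPM in every heart. Lemd2 measured 24.3, 25.0 and 25.4 CPM in the 3 floxed mice against 6.59, 13.1 and 11.4 in cKO replicates 4, 5 and 6, and fell by 1.27 on the log2 scale (adjusted p = 0.0142 by edgeR). In the adults, where the knockin does not remove the gene, it lay between 32.0 and 34.8 CPM for WT mice and between 24.8 and 25.6 for KI/KI mice. 1 library stood apart before any comparison: WT replicate 3 had the highest level of the 12 hearts for Scd1 and for 7 of the 8 fat markers (Fabp4 was the exception), and the results below that it changes are also given without it.

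Scd1 was at 69.7, 64.4 and 953.0 CPM in WT replicates 1, 2 and 3. It was at 190.3, 170.0 and 53.7 CPM in KI/KI replicates 4, 5 and 6. KI/KI replicates 4 and 5 thus lay between WT replicates 1 and 2 on the one side and WT replicate 3 on the other. That heart was 14.8 times the lowest of its group, and KI/KI replicate 6 lay below every WT heart. At P1 the floxed hearts were at 11.1, 10.3 and 7.33 CPM, with the cKO hearts at 7.37, 5.50 and 5.66. Each adult heart had more Scd1 than each P1 heart, and the gap between the lowest adult and the highest P1 heart, 53.7 against 11.1 CPM, was wider than the whole spread within either P1 group. The order of the group means was WT (362.4 ± 511.5 CPM), KI/KI (138.0 ± 73.7), floxed (9.58 ± 1.98) and cKO (6.18 ± 1.03, mean ± SD, n = 3 each), and neighbours overlapped in the adult pair and in the P1 pair. The within-group SD of Scd1, 1.23 on the log2 scale, ranked 231 of 15729 genes. WT replicate 3, at 2.55 above its group mean, weighed most in this SD, which was not computed without it. The highest heart was 3.55 times the lowest in KI/KI, 1.51 times in floxed and 1.34 times in cKO hearts.

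The secreted markers and Plin1 had the same highest heart among the WT mice. Adipoq was at 1.77, 0.702 and 15.0 CPM in WT replicates 1, 2 and 3 against 3.34, 5.90 and 1.29 in KI/KI replicates 4, 5 and 6. Plin1, the droplet coat, had values of 1.96, 0.702 and 18.8 CPM in those WT mice against 4.29, 5.95 and 1.41 in those KI/KI mice. For both genes WT replicate 3 was highest and WT replicate 2 lowest, and among KI/KI hearts replicate 5 was highest and replicate 6 lowest.

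Cfd, the complement protease, measured 4.24, 1.13 and 22.4 CPM in WT mice against 5.09, 14.6 and 3.85 in KI/KI mice. Retn was lower, at 0.289, 0.122 and 1.74 CPM in WT mice against 0.477, 0.411 and 0.225 in KI/KI mice, which rest on 4 to 64 reads. Car3 reached 14.7, 7.36 and 99.5 CPM in WT mice against 24.6, 44.4 and 11.8 in KI/KI mice. All 3 repeated the order of Adipoq among the WT hearts, and KI/KI replicate 6 was again the lowest of its group.

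Ucp1 had the widest range of the 9 genes. It was counted 24, 0 and 429 times in WT replicates 1, 2 and 3 and 94, 285 and 1 times in KI/KI replicates 4, 5 and 6, that is 0.772, 0, 11.7, 2.80, 6.90 and 0.0281 CPM. It was thus at or under the floor of 3 reads in 1 heart of each adult group, the same hearts that were lowest for Adipoq. At P1, Ucp1 had 0, 1 or 2 reads in each of the 6 hearts.

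Fabp4 and Cidea did not share this pattern. Fabp4 measured 413.5, 396.5 and 568.6 CPM in WT mice against 506.1, 595.0 and 663.5 in KI/KI mice, so that its highest adult heart was KI/KI replicate 6, the lowest adult heart for Scd1. At P1 it stayed between 341.8 and 555.3 CPM. Cidea lay between 22.3 and 25.8 CPM in the 6 adult hearts and between 13.9 and 24.8 CPM at P1. Their within-group SDs, 0.24 and 0.27 on the log2 scale, were at the 61.3 and 64.8 percentiles of all genes tested.

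The P1 hearts held few reads of the fat markers. Adipoq had 34, 29 and 3 reads in floxed replicates 1, 2 and 3 (0.767, 0.630 and 0.064 CPM) and 5, 8 and 5 in cKO replicates 4, 5 and 6. Plin1 had 19, 13 and 1 reads in the floxed hearts and 4, 4 and 1 in the cKO hearts. Cfd had 1 to 3 reads in floxed and 7 or 8 in cKO hearts, and Retn had 0 or 1 read in every P1 heart. Car3 was measurable throughout, at 11.7, 7.80 and 8.36 CPM in floxed and 1.48, 6.73 and 1.68 CPM in cKO hearts, and its groups did not overlap. Floxed replicates 1 and 2 thus stood above the other P1 hearts for Adipoq and Plin1, as they did for Scd1.

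**Figure D1:**
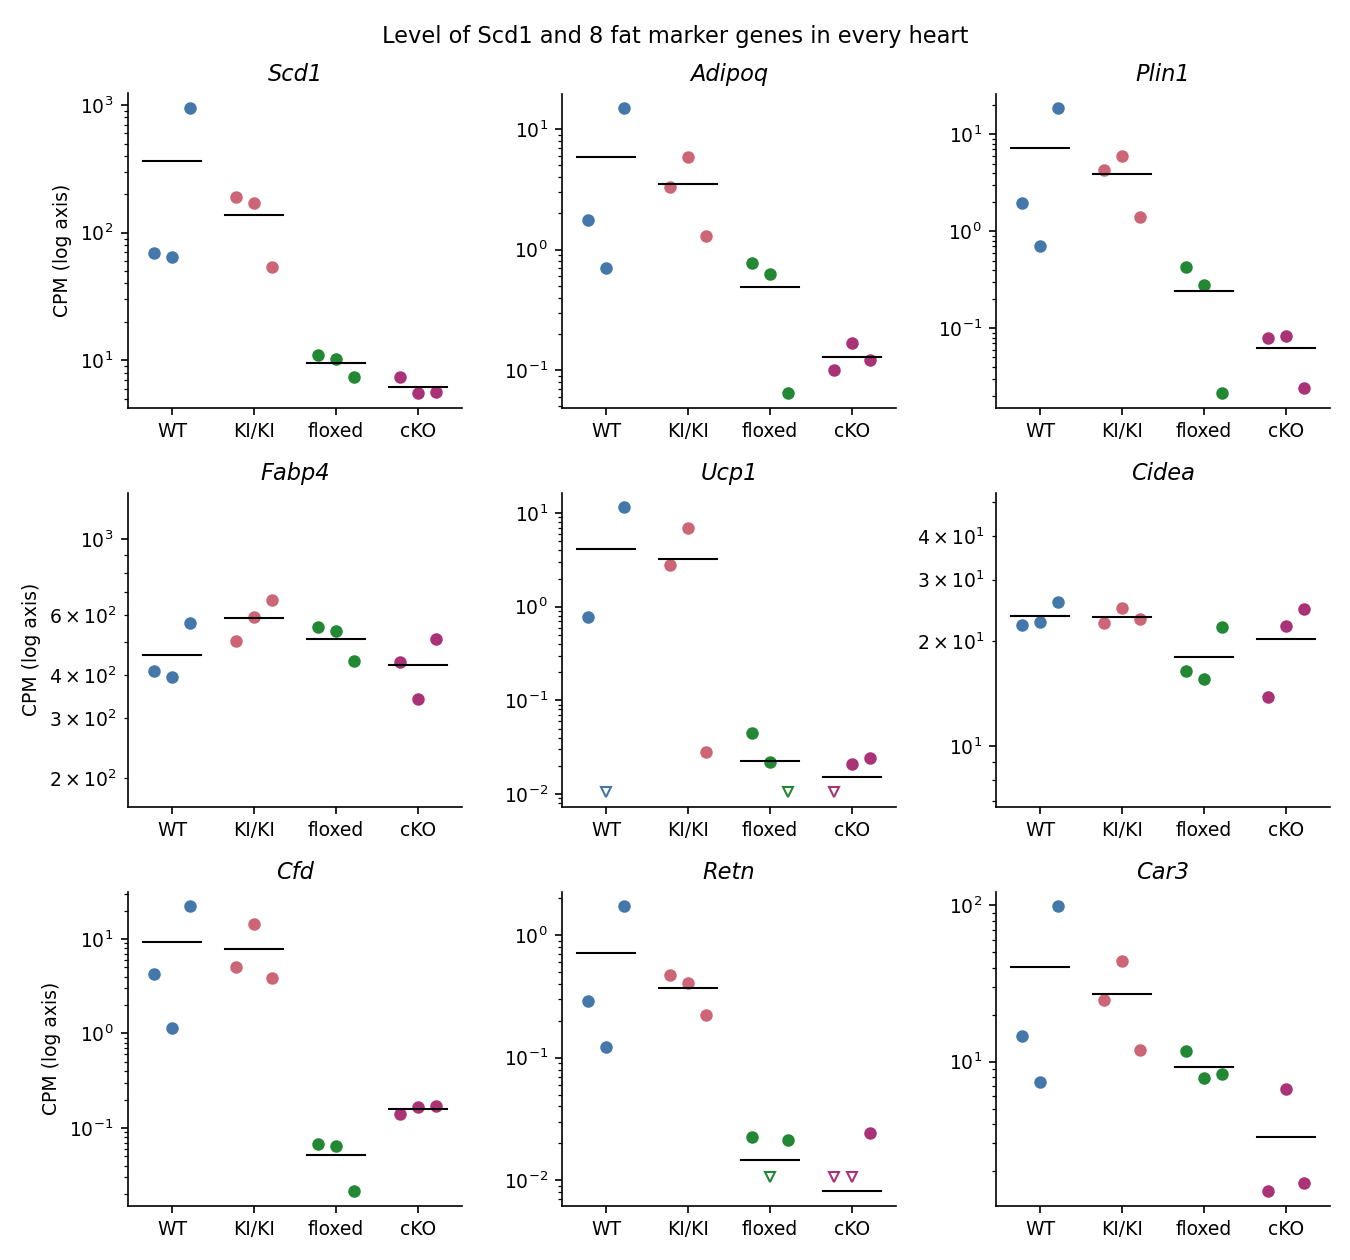
Level of Scd1 and the 8 fat markers in each of the 12 hearts, in CPM on a log axis, with replicates in number order from left to right in each group, a line at the group mean (n = 3) and open triangles for hearts with no read, placed at 0.5 times the lowest value above 0 for that gene. WT replicate 3 is the highest WT heart in all 9 panels, while Fabp4 and Cidea stay within a narrow range in every group.

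Per kilobase of exon the genes stood in another order. In WT hearts Fabp4 was at 102.4 ± 21.1 CPM per kilobase, Scd1 at 74.1 ± 104.6, Cidea at 21.1 ± 1.74, Car3 at 14.1 ± 17.9 and Cfd at 10.1 ± 12.5 (mean ± SD, n = 3). Adipoq was at 4.23 ± 5.79, Ucp1 at 2.53 ± 3.99, Plin1 at 1.54 ± 2.17 and Retn at 0.454 ± 0.564 CPM per kilobase. For the genes that followed Scd1 the SD was larger than the mean, so their neighbours in this order could not be told apart. In floxed hearts Fabp4 (114.2 ± 13.8) and Cidea (16.1 ± 3.10) were the 2 highest, Car3 was at 3.24 ± 0.734 and Scd1 at 1.96 ± 0.405 CPM per kilobase. Exon length was the union over annotated transcripts, which for Fabp4 covers its whole span and lowers its value.

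Within groups, Scd1 followed most of the fat markers, and more of them in the adult hearts than at P1. Each heart's log2 CPM was taken as its deviation from the mean of its group, which removes differences between groups and leaves 8 degrees of freedom over the 12 hearts. The Pearson r with Scd1 was 0.90 for Retn, 0.88 for Plin1, 0.85 for Adipoq, Ucp1 and Cfd, and 0.80 for Car3. Those 6 genes lay at the 98.9 to 99.8 percentiles of the other genes tested, whose median r was -0.04 and of which 166 (1.06%) were above 0.8. Fabp4 had an r of 0.44 (87.8 percentile) and Cidea of 0.07 (60.0 percentile). WT replicate 3 carried much of this likeness: without it r was 0.81 for Ucp1, 0.73 for Plin1, 0.66 for Adipoq, 0.51 for Retn, 0.49 for Cfd and 0.41 for Car3, at the 89.6 to 99.6 percentiles, and it was -0.22 for Fabp4 and -0.30 for Cidea. In the 6 adult hearts r was 0.86 to 0.96 for Retn, Plin1, Adipoq, Ucp1, Cfd and Car3 (95.8 to 99.3 percentiles). In the 6 P1 hearts it was 0.84 for Plin1 (92.5 percentile), 0.71 for Adipoq (86.4), 0.61 for Cfd (81.8) and 0.32 for Ucp1 (68.5). There it was 0.54 for Fabp4, -0.26 for Car3, -0.35 for Retn and -0.88 for Cidea, with few reads of Ucp1, Cfd and Retn. All these correlations come from the same 12 libraries and share their scaling.

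A fat score, the mean log2 CPM of Adipoq, Plin1, Cfd and Retn, summed up the relation. Its deviations and those of Scd1 had a Pearson r of 0.91 and a Spearman rho of 0.84 over the 12 hearts. In the 6 adult hearts r was 0.94 (rho 0.89) and in the 6 P1 hearts 0.75 (rho 0.37), where the score rests on few reads. Without WT replicates 2 and 3, the hearts farthest from the median of the score, r was 0.79 (rho 0.67), and without WT replicate 3 alone it was 0.71 (rho 0.65). WT replicate 3 was 2.31 above its group mean on the score and KI/KI replicate 5 was 0.79 above its own. WT replicate 2 and KI/KI replicate 6 were lower than their group means by values of the score deviation of -1.85 and -0.92. Some hearts did not follow: KI/KI replicate 4 had the most Scd1 of its group but a score of only 0.14 above the mean, and among cKO hearts replicate 4 had the most Scd1 and the lowest score.

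**Figure D2:**
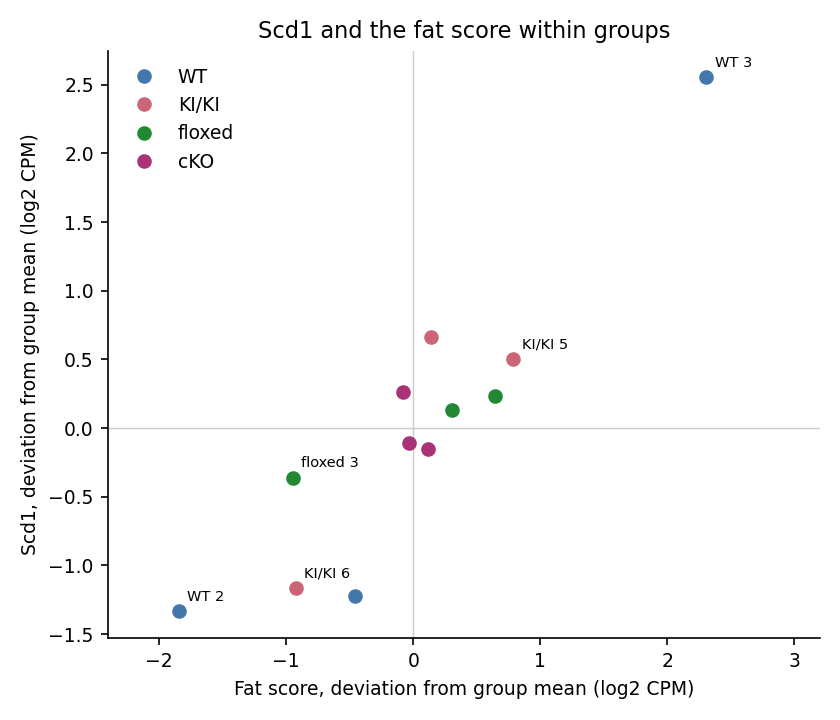
Deviation of Scd1 from its group mean (log2 CPM) against the deviation of the fat score, the mean log2 CPM of Adipoq, Plin1, Cfd and Retn, with 1 point per heart (n = 12) coloured by group. WT replicate 3 lies alone at the top right, and r over the 12 hearts was 0.91 with it and 0.71 without it.

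The order of hearts puts less weight on 1 library, and it set the markers apart less clearly. The highest heart for Scd1 was WT replicate 3, KI/KI replicate 4, floxed replicate 1 and cKO replicate 4 in the 4 groups. No fat marker had its highest heart there in all 4 groups, and over all genes 1.2% did. Retn shared the highest heart with Scd1 in 3 groups, with KI/KI replicate 4 among them and with 0 or 1 read behind it at P1, and Adipoq, Plin1, Ucp1, Cfd, Car3 and Fabp4 shared it in 2, so that by this measure Fabp4, with an r of 0.44, stood level with markers whose r was 0.80 or more. The full order of the 3 hearts was the same as that of Scd1 in all 4 groups for 0.108% of the genes and for none of the 8 markers.

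The genes most like Scd1 were named by the highest r over the 12 hearts. They were Lgals12 (0.97), Dmrt2 (0.97), Dnah6 (0.96), Acly (0.95), Tmem45b (0.95), Cidec (0.95), Prkar2b (0.94), Fasn (0.94), Syngr3 (0.94) and Acsm3 (0.93). Without WT replicate 3 their r was between 0.72 (Acly) and 0.89 (Cidec), and over the 6 P1 hearts alone it was -0.37 for Fasn, 0.23 for Acly, 0.37 for Prkar2b and 0.60 to 0.99 for the others. Lgals12, the galectin of fat cells, was at 0.225, 0.275 and 3.70 CPM in WT mice against 0.924, 1.09 and 0.393 in KI/KI mice. Cidec, which fuses lipid droplets in fat cells, was at 1.58, 0.794 and 12.02 CPM in WT mice against 3.57, 5.01 and 0.984 in KI/KI mice, with 0 to 3 reads per heart at P1. Fasn, fatty acid synthase, was at 76.0, 65.4 and 411.3 CPM in WT mice against 122.0, 173.4 and 62.1 in KI/KI mice. Acly, which makes the acetyl-CoA that Fasn uses, was at 66.2, 66.7 and 120.3 CPM in WT mice against 72.1, 74.9 and 63.2 in KI/KI mice. In all 4 genes WT replicate 3 was the highest WT heart and KI/KI replicate 6 the lowest KI/KI heart.

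The other genes of that set were mostly rare. Tmem45b, a membrane protein, went from 0.092 to 7.15 CPM among WT hearts, and Prkar2b, a regulatory subunit of protein kinase A that fat cells make in quantity, from 3.66 to 21.0. Dmrt2, a transcription factor, and Syngr3, a synaptic vesicle protein, stayed under 0.5 CPM in all 12 hearts. Dnah6, a motor protein of cilia, was higher at P1 (5.42 to 21.4 CPM) than in adult hearts (0.590 to 4.16 CPM), and Acsm3, a mitochondrial acyl-CoA synthetase, reached 1.69 CPM in WT replicate 3. The lowest r belonged to U2af1 (-0.95), Rwdd2b (-0.93), Btaf1 (-0.90), Mtx1 (-0.90) and Naa20 (-0.89), and was between -0.79 and -0.47 for them without WT replicate 3. U2af1, a splicing factor, showed how small those differences were, at 25.4, 25.4 and 22.2 CPM in WT hearts. Among the closest genes for Adipoq were Plin1 (0.98), Chp2 (0.96), Hcar2 (0.96), Slc24a3 (0.95), Adam8 (0.93), Shisa3 (0.93), Glcci1 (0.92), Sorcs1 (0.92) and Ift140 (0.92), none of which was in the set of Scd1, and without WT replicate 3 their r with Adipoq was still 0.82 or more. Hcar2, the niacin receptor of fat cells, was at 0 to 0.680 CPM in the 12 hearts.

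Lists of other genes showed which parts of lipid metabolism moved with Scd1. Of 20 other fat cell genes, 8 had an r above 0.8 and the median was 0.73 (0.39 without WT replicate 3), with Lgals12 and Cidec highest. Lep, the hormone leptin, was at 0.225, 0.397 and 4.16 CPM in WT mice against 0.834, 0.194 and 0.169 in KI/KI mice, with at most 1 read per heart at P1. Other members of the list did not follow: r was 0.22 for Pparg, -0.35 for Dgat2 and -0.61 for Plin4. Among 12 further brown fat genes 9 could be scored, with a median r of 0.32 (0.14 without WT replicate 3), and 3 were above 0.8: Otop1, a proton channel (0.93), Slc27a2, a fatty acid transporter (0.85), and Nrg4, a secreted growth factor (0.81). Those 3 kept an r of 0.84 to 0.87 without WT replicate 3. The r of the others scored lay between -0.05 and 0.39. Slc27a2 was rare, at 0.680 CPM or less in every heart. Otop1 was counted 2, 0 and 74 times in WT and 16, 41 and 1 times in KI/KI hearts, the order of Ucp1 in both groups.

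Fatty acid synthesis was divided. Of 22 desaturase and synthesis genes, 5 had an r above 0.8, namely Acly, Fasn, Acaca (0.93), Elovl6 (0.91) and Pnpla3 (0.84), and the median of the list was 0.19 (-0.03 without WT replicate 3). Without that heart r was 0.90 for Pnpla3, 0.74 for Fasn, 0.72 for Acly, 0.55 for Acaca and 0.53 for Elovl6. The likeness of Fasn, Acaca and Elovl6 lay in the adult hearts (r of 0.98 for each), and at P1 their r was -0.37, -0.62 and -0.57. Acaca makes malonyl-CoA, Elovl6 lengthens the product of Fasn before desaturation, and Pnpla3 is a lipid droplet protein. The regulators Srebf1 (0.29), Mlxipl (-0.22) and Nr1h3 (-0.03) had no such r. Lipid droplet and triglyceride genes had a median of -0.25, with 0 of 16 above 0.8, cholesterol synthesis genes of -0.13, PPAR-alpha and fasting genes of 0.34 (0.15 without WT replicate 3) and clock genes of -0.13, and none of the genes in these lists was above 0.8.

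**Figure D3:**
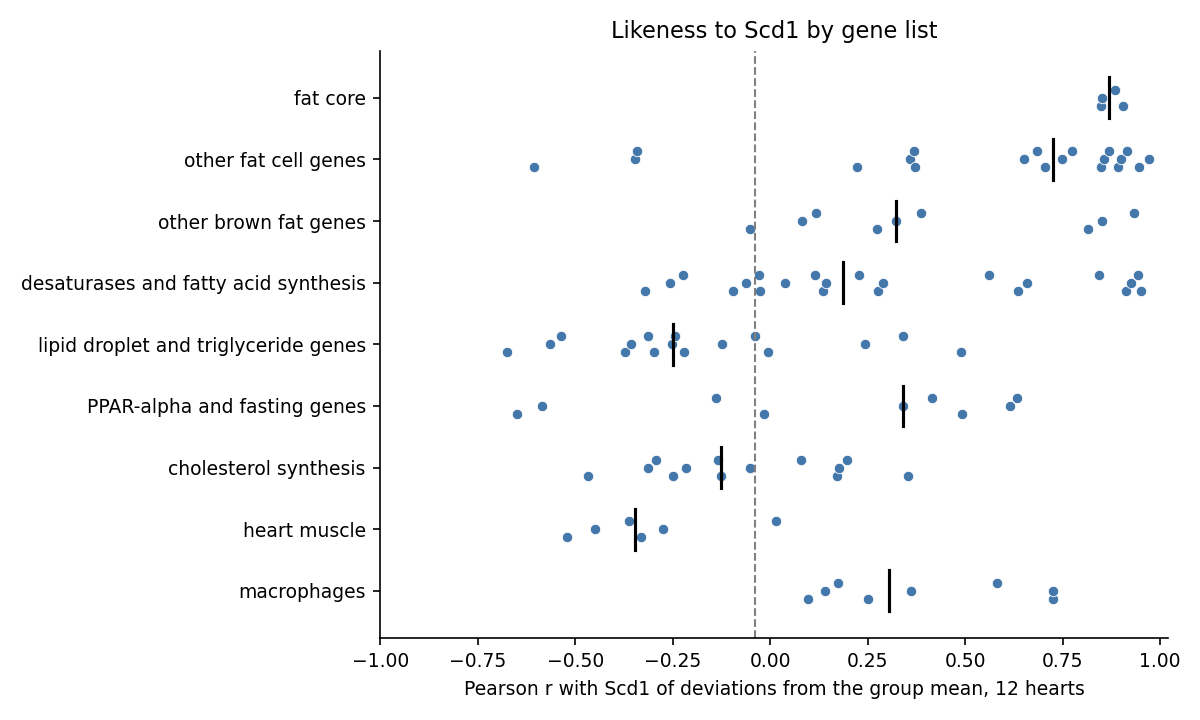
Pearson r with Scd1 of deviations from the group mean over 12 hearts, for each gene (points) of 9 lists, with a bar at the median of the list and a dashed line at the median of all genes, -0.04. The 4 fat core genes (Adipoq, Plin1, Cfd and Retn) lie between 0.85 and 0.90, and fatty acid synthesis spreads from -0.32 to 0.95.

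The proportions between the genes were compared by how much each adult heart exceeded the heart of its group with the least Scd1. That heart, WT replicate 2 or KI/KI replicate 6, also had the least Adipoq of its group. For each CPM of Adipoq gained, WT replicate 3 gained 62.0 CPM of Scd1 (counting standard error 2.9), KI/KI replicate 4 gained 66.9 (12.1) and KI/KI replicate 5 gained 25.2 (2.4). Fasn gained 24.1 (1.1), 29.3 (5.4) and 24.1 (2.3) CPM in the same hearts, and Car3 gained 6.42 (0.32), 6.28 (1.2) and 7.06 (0.70). Plin1 gained 1.26 (0.077), 1.41 (0.32) and 0.986 (0.13). WT replicate 1, which exceeded WT replicate 2 by only 1.07 CPM of Adipoq, gained 4.96 (2.3) CPM of Scd1, 9.90 (3.3) of Fasn, 6.88 (2.0) of Car3 and 1.18 (0.41) of Plin1. Car3 and Plin1 thus stood in a similar proportion to Adipoq in all 4 hearts, and Fasn in the 3 with the most Adipoq but not in WT replicate 1. Scd1 varied from 4.96 to 66.9.

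Ucp1 gained 0.814 (0.054) CPM per CPM of Adipoq in WT replicate 3, 1.36 (0.28) in KI/KI replicate 4 and 1.49 (0.16) in KI/KI replicate 5, and the values of both KI/KI hearts lay within their counting errors of each other. Lep, a white fat hormone, gained 0.263 (0.027), 0.326 (0.10) and 0.0054 (0.021) in the same hearts. Cfd gained 1.49 (0.088), 0.609 (0.27) and 2.32 (0.26), and 2.92 (0.86) in WT replicate 1. These proportions were computed after the values were seen. Each is of a single heart with errors that cover counting only, so they do not show whether hearts differed beyond the usual spread between mice.

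Markers of other tissues were read in the same hearts. Scgb1a1, a secretory protein of the airway, had 0, 0 and 3505 reads in WT replicates 1, 2 and 3 and 1144, 2 and 0 in KI/KI replicates 4, 5 and 6, and between 3 and 1584 at P1, and its r with Scd1 was 0.79 (0.65 without WT replicate 3). The summed level of 8 lung genes, Scgb1a1 included, reached 101.8 CPM in WT replicate 3 and 35.8 in KI/KI replicate 4. It was as low as 0.885 CPM in the lowest WT heart and 1.15 in the lowest KI/KI heart. Most of the 2 high adult sums was Scgb1a1 itself, at 95.3 CPM in WT replicate 3 and 34.1 in KI/KI replicate 4. Unlike the fat markers, lung genes were not high in KI/KI replicate 5. At P1 the lung sum was 31.0, 49.2 and 2.77 CPM in floxed replicates 1, 2 and 3. In cKO replicates 4, 5 and 6 it was 23.1, 3.83 and 5.52 CPM. WT replicate 3, KI/KI replicate 4 and cKO replicate 4 thus had both the highest lung sum and the most Scd1 of their groups. Among floxed hearts replicate 2 had the highest lung sum and replicate 1 the most Scd1. Sums over 10 skeletal muscle genes ranged from 88.8 to 97.9 CPM among WT mice and from 72.9 to 138.9 among KI/KI mice, and most of each sum was Myl1, a myosin light chain, at 74.8 CPM in WT replicate 3. Of those 10 genes 7 were highest of the WT hearts in WT replicate 3, where Myh4, a myosin of fast muscle fibres, had 130 reads against 2 and 3 in the other two, and the mean log2 CPM of the list was 1.31 there against -0.25 and 0.04. In KI/KI hearts that mean lay between -0.43 and -0.22. Sums over 8 macrophage genes ranged from 276.6 to 429.7 CPM among WT mice and from 444.2 to 517.2 among KI/KI mice. The part of tissue beside the heart in the Scd1 values was not tested. In whole hearts, more cells of a type and more RNA per cell cannot be told apart.

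KI/KI hearts had no call for Scd1 or any marker against WT. The log2 fold change of Scd1 was -1.41 (standard error, SE, 1.10, adjusted p = 0.531, edgeR's quasi-likelihood test, n = 3 per group), and the 8 markers between -1.02 (Retn) and 0.36 (Fabp4), with a median of -0.49 against 0.00 over all genes tested. No gene passed the adjusted p of 0.05 among the 14592 tested (0% called), 2363 had an unadjusted p under 0.05, and DESeq2 called 518. DESeq2 gave no p for Scd1. All 9 genes overlapped between the groups, where 21.8% of tested genes did not.

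Leaving out WT replicate 3 turned the direction of 7 of the 9 genes. The log2 fold change became 1.05 for Scd1 (SE 0.52, adjusted p = 0.332), 1.55 for Adipoq, 1.58 for Plin1, 3.14 for Ucp1, 1.58 for Cfd, 0.87 for Retn and 1.31 for Car3, with adjusted p between 0.310 and 0.423 by edgeR. Fabp4 went from 0.36 to 0.55 and Cidea from 0.00 to 0.08. With the fat score as a covariate in all 6 hearts, Scd1 was at -0.60 (SE 0.39, adjusted p = 0.449 by edgeR). The genes of the score were chosen with these hearts known and, like Scd1, were highest in WT replicate 3. The smaller standard error of that fit is therefore no separate result. Over every alternative that gave one, each heart left out included, the adjusted p of Scd1 stayed between 0.332 and 0.784.

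**Figure D4:**
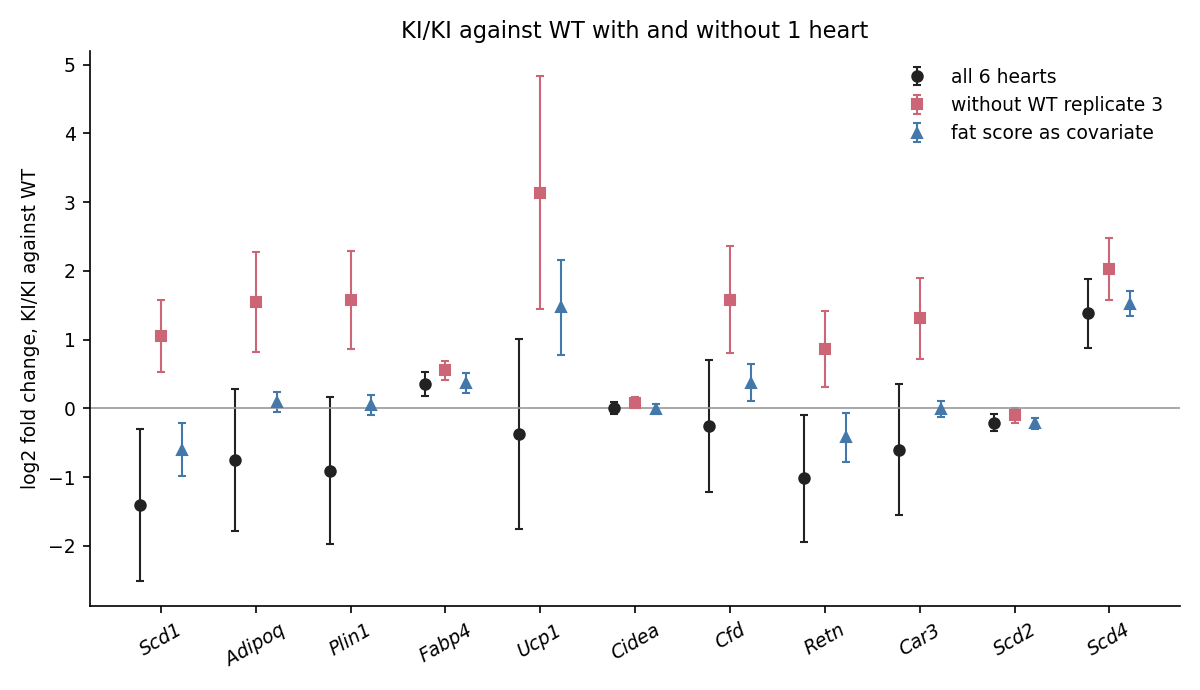
Log2 fold change of KI/KI against WT hearts for the 9 genes and for Scd2 and Scd4, with bars of 1 standard error from edgeR, in all 6 hearts (circles), without WT replicate 3 (squares) and with the fat score as a covariate (triangles). Scd1 lies at -1.41 with all hearts and at 1.05 without WT replicate 3, while Scd2 and Cidea stay close to 0.

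At P1, the mean of Scd1 was 9.58 CPM in floxed and 6.18 CPM in cKO hearts, and the difference did not pass the test. The adjusted p was 0.0864 by edgeR for a log2 difference of -0.63 (SE 0.21), where 16.9% of 15317 genes were called, and it was 0.0314 by DESeq2. The groups overlapped, since cKO replicate 4 at 7.37 CPM was above floxed replicate 3 at 7.33. That cKO library also had 612.1 CPM of Xist, the RNA that coats an inactive X chromosome, where the other 11 hearts were at 2.02 or less, and without it Scd1 was at -0.80 (adjusted p = 0.0618). With the fat score as a covariate Scd1 was at -0.48 (adjusted p = 0.172 by edgeR). That score rests on few reads at P1, from genes too low for the filter. It was -2.06, -2.41 and -3.65 in floxed replicates 1, 2 and 3 and -3.11, -2.92 and -3.07 in cKO replicates 4, 5 and 6. It may thus take up part of the difference between the groups, and this fit cannot be read as an estimate free of fat. For Car3 the log2 difference was -1.49 (SE 0.53, adjusted p = 0.0982 by edgeR and 0.0229 by DESeq2), and its groups did not overlap, as held for 39% of genes tested. Without cKO replicate 5, whose Car3 was 4.56 times that of the lowest, it was -2.55 (adjusted p = 0.0329). Fabp4 (-0.26) and Cidea (0.17) did not pass, with adjusted p of 0.303 and 0.626, and Adipoq, Plin1, Ucp1, Cfd and Retn were too low for the filter.

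Of the related lists, some genes did pass at P1. Among fatty acid synthesis genes 3 of 21 tested fell (7.57% of all genes tested did) and 0 rose (9.32%) in cKO hearts: Lpin1 (-1.18, adjusted p = 0.00869), Acacb (-0.65, 0.0233) and Fasn (-0.57, 0.0358). Of 17 fat cell genes tested, Dgat2, which makes triglyceride, fell by 1.44 on the log2 scale (adjusted p = 0.00535) and Acvr1c, an activin receptor of fat cells, by 1.68 (0.0203), while Cebpa, a transcription factor of fat cells, liver and myeloid cells, rose by 0.86 (0.0282). Of 16 lipid droplet genes, Fitm1 (-1.004, 0.0387) and Cd36 (-0.44, 0.0212) fell. All of these had groups that did not overlap, as held for 39% of genes tested. They were named by their call, so this adds nothing to it. In the same hearts 5 of 8 macrophage genes rose, by 0.89 to 1.27 on the log2 scale, and their part in the Cebpa value was not tested.

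The change of Scd1 was not shown to differ between the models. The difference, KI/KI against WT minus cKO against floxed, was -0.77 (SE 1.29, adjusted p = 0.787 by edgeR), and 1.67 (SE 0.58, adjusted p = 0.157) without WT replicate 3. None of the 9 genes was called, where 2.43% of 15729 genes were. The markers too low for the filter at P1 could hardly have been called. Their SE was 2.29 for Adipoq, 3.02 for Plin1, 4.72 for Ucp1, 3.16 for Cfd and 99.8 for Retn. The count therefore does not show that the models were alike. Fabp4 came nearest, at 0.61 (SE 0.25, adjusted p = 0.211).

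WT hearts at 2 months differed from floxed hearts at P1 in most genes (63.5% of 15729 called), and age, line and handling cannot be told apart in this comparison. Scd1 was higher in WT hearts by a log2 fold change of 5.24 (SE 1.03, adjusted p = 0.00101 by edgeR) and by 2.81 (SE 0.42, adjusted p = 0.000280) without WT replicate 3. Of the 8 markers 6 were called higher, as were 31% of all genes tested, and none lower. Adipoq, Plin1, Ucp1, Cfd and Retn were too low for the filter in the P1 pair and entered this fit through the adult hearts. Their direction was thus largely fixed by the filter, and the count is no result about the markers. Cfd was higher by 7.45 and by 5.62 without WT replicate 3, Plin1 by 4.91 and by 2.44, and both kept their call (adjusted p = 0.00120 and 0.0331). Retn was also called in both fits (adjusted p = 0.00166 and 0.00671), with 0 or 1 read in each floxed heart. Adipoq (3.63, adjusted p = 0.0126), Ucp1 (adjusted p = 0.00317) and Car3 (2.13, adjusted p = 0.0490) were called with all hearts and not without WT replicate 3, when Adipoq was at 1.34, Car3 at 0.25 and Ucp1 at 3.93 (7.43 with all hearts, SE 2.46 and 1.95). Fabp4 (-0.16) and Cidea (0.39) were not called in either. With the fat score as a covariate, an alternative added after the values were seen, Scd1 was at 0.66 (SE 0.59, adjusted p = 0.380), but that score itself differs between the ages.

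The paralogs of Scd1 followed it in part within adult groups and differed from it in level and with age. Scd2, the desaturase of brain and of newborn tissues, was at 82.8, 86.1 and 101.5 CPM in WT, 80.5, 85.5 and 67.8 in KI/KI, 522.3, 492.7 and 558.1 in floxed and 445.3, 543.2 and 473.4 in cKO hearts. It was lower in WT than in floxed hearts by a log2 value of -2.54 (adjusted p = 4.53e-08 by edgeR), the reverse of Scd1. Per kilobase, floxed hearts had 96.0 ± 5.99 CPM of Scd2 and 1.96 ± 0.405 of Scd1, whereas KI/KI hearts had 14.3 ± 1.67 and 28.2 ± 15.1 (mean ± SD, n = 3). Scd2 had an r with Scd1 of 0.64 within groups (95.5 percentile, and 0.43 without WT replicate 3), with 0.89 over the adult and -0.74 over the P1 hearts, but its within-group SD was only 0.15 on the log2 scale.

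Scd4, the paralog known from heart, was at 14.5, 5.37 and 25.8 CPM in WT mice and 43.1, 48.4 and 28.1 in KI/KI mice. The groups did not overlap, and the log2 difference was 1.38 (SE 0.50, adjusted p = 0.277 by edgeR) and 2.02 (SE 0.45, adjusted p = 0.202) without WT replicate 3. It was the one desaturase of the 4 whose adult groups were apart, as held for 21.8% of genes tested, and it did not pass the test. Within groups its r with Scd1 was 0.66 (96.2 percentile, and 0.22 without WT replicate 3), with 0.82 over the adult and -0.78 over the P1 hearts. WT replicate 3 was the highest WT heart for all 3 paralogs, and KI/KI replicate 6 the lowest KI/KI heart for Scd2 and Scd4, as for Scd1. At P1 it was at 49.5 to 98.2 CPM in floxed and 67.0 to 115.2 in cKO hearts, above WT hearts, with a log2 fold change of -2.26 for WT against floxed (adjusted p = 0.00110). Scd3, a desaturase of skin, had 1 to 15 reads per heart. Scd1 and Scd3 are close in sequence and reads could be assigned to either, and with their reads summed Scd1 kept a log2 fold change of -1.40 in KI/KI and -0.64 in cKO hearts.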

How the data were processed

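PolyA RNA from 12 mouse hearts was sequenced, 1 library per mouse. For each library the authors removed adapters (Trim Galore), mapped the reads with STAR 2.7.2b on the mm10 build, handled alignments with SAMtools 1.9 and deposited raw gene counts made with HTSeq, with no normalization. Bowtie2 2.3.4.3 and DESeq2 are also named in the submitters' processing notes. The strand setting of the counting is not given in the sources used here, so overlapping antisense genes could share reads.

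Counts were scaled by TMM in edgeR 4.0.16 (R 4.3.3) and low genes were removed with filterByExpr. Each comparison used the robust quasi-likelihood test over all remaining genes with Benjamini-Hochberg adjustment, and a gene was called at an adjusted p under 0.05. KI/KI was compared with WT and cKO with floxed in fits of those 6 hearts. The difference between the models, and WT against floxed, came from 1 fit of the 12 hearts. DESeq2 1.42.0 was an alternative. Log2 CPM used a prior count of 2, and deviations were taken from the group mean.

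The 9 genes and all lists were chosen with earlier results of these data known. Genes outside them were named by rank of r with Scd1 or Adipoq, or, of each list, by their call (at most 4, by size) or by r with Scd1 (at most 2). 1 gene of the Adipoq ranking is not reported here. A few others (Pparg, Plin4, Srebf1, Mlxipl, Nr1h3, Acaca, Elovl6, Pnpla3, Lep, Scgb1a1, Myh4, Myl1) were named after their values were seen. Of 181 list genes 2 were found by an older symbol (Tusc5 and Emr1). In none of the 12 replicate pairs were the counts identical or alike within sampling noise (chi-square per degree of freedom from 19.3 to 138). The labels name no batch, and p-values measure the spread between these mice. The steps were tested on simulated data. Alternatives were other size factors, filters, fits, covariates and scores, and each heart left out in turn.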

Additional observations from a re-analysis of the deposited data

How the results depend on the processing

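KI/KI and WT, and cKO and floxed, share no replicate numbers, so no paired fit of those comparisons was possible. WT and floxed hearts share numbers 1 to 3 and KI/KI and cKO hearts 4 to 6, but mice of different ages share only a number: deviations of same-numbered hearts correlated at -0.54 to -0.24 and at 0.09 to 0.21. A replicate block, added after seeing the data, left 9485 calls in WT against floxed, where Car3 lost its call (1.28) and Cidea gained one (0.40). It left 0 calls by edgeR in the difference between the models (2730 genes at an unadjusted p under 0.05), where Scd1 was at 0.40 (adjusted p = 0.901). Over the alternatives, 637 log2 fold changes of the 9 genes, Scd2 and Scd4 were recomputed: 578 kept direction and side of the threshold, 36 changed direction, 16 lost a call and 7 gained one. The cause was not tested. Genes called in KI/KI against WT numbered 0, and 518 by DESeq2, 48 with all 12 hearts in one fit and 0 to 56 with 1 heart left out (56 without KI/KI replicate 4). In cKO against floxed 2587 genes became 1050 with the fat score as a covariate, 4113 with all 12 hearts, 710 above a fold change of 2 and 160 to 3463 with 1 heart left out, falling by over 1.5 times without floxed replicate 1 (160) or 2 (668) or cKO replicate 5 (542). For the difference between the models 383 became 1323 by DESeq2 and 51 to 924 with 1 heart left out, and leaving out any heart but KI/KI replicate 5 and cKO replicate 4 moved it by over 1.5 times (WT replicates 1, 2 and 3: 70, 60 and 183, KI/KI 4 and 6: 113 and 66, floxed 1, 2 and 3: 51, 87 and 654, cKO 5 and 6: 64 and 924). WT against floxed kept between 7369 and 10430 calls, against 9984. The r of Scd1 with the fat score ran from 0.71 to 0.95 with 1 heart left out, lowest without WT replicate 3, and from 0.75 to 0.97 otherwise.

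In KI/KI hearts, leaving out 1 heart gave log2 fold changes from -1.90 to 1.05 for Scd1, -1.40 to 1.55 for Adipoq, -1.43 to 1.58 for Plin1, -1.65 to 3.14 for Ucp1, -1.09 to 1.58 for Cfd, -1.51 to 0.87 for Retn, -1.18 to 1.31 for Car3 and -0.046 to 0.080 for Cidea, the highest of each without WT replicate 3. Ucp1 (0.20) and Cfd (0.07) also turned positive without KI/KI replicate 6. Cidea, at 0.00030, was at -0.0082 by DESeq2, -0.0063 with RLE size factors, -0.0045 without a filter, -0.0037 with the fat score and -0.0059 with all 12 hearts. With the fat score as a covariate, which adjusts its own genes for themselves, Adipoq was at 0.087, Plin1 at 0.047, Ucp1 at 1.47 and Cfd at 0.37. For the difference between the models, leaving out 1 heart gave -1.27 to 1.67 for Scd1, -1.13 to 3.64 for Ucp1 and -0.73 to 1.64 for Retn. With the fat score, a covariate added here after seeing the data, WT against floxed became -1.74 for Adipoq, -0.69 for Plin1, -2.07 for Ucp1 and -2.08 for Car3. The legacy quasi-likelihood fit and the fit of WT and floxed hearts alone were also added after seeing the data. At these depths Ucp1, Retn, Cfd and Plin1 rest on under 20 reads in each P1 heart, and with 3 mice per group the direction of 7 of the 9 genes in KI/KI against WT turned when WT replicate 3 was left out.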

Other observations

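Other lists read beside Scd1 held calls in cKO hearts, where 3 of the 8 fat markers were high enough to be tested. Of 12 clock genes 4 fell, with none rising: Dbp and Per3 fell by 1.74 and 1.71 on the log2 scale (adjusted p = 0.00634 for both by edgeR), Nr1d2 by 1.00 and Tef by 0.68. Dbp and Tef encode transcription factors with a daily rhythm, Per3 a period protein and Nr1d2 a nuclear receptor of the clock. Of 9 PPAR-alpha and fasting genes 4 fell and none rose, namely Ucp3 (-1.77, adjusted p = 0.0187), a mitochondrial carrier, Ehhadh (-0.75, 0.0123), a peroxisomal oxidation enzyme, Acot1 (-0.65, 0.0224), a thioesterase, and Cpt1a (-0.29, 0.0392), which admits fatty acids to mitochondria. Of all genes tested 7.57% fell. The change of Ucp3, Ehhadh, Cpt1a and Dbp also differed between the models, by 2.36, 0.75, 0.53 and 1.62 (adjusted p from 0.0192 to 0.0390 by edgeR), where 2.43% of genes did.

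Among the 7 brown fat genes tested at P1, Slc36a2, an amino acid transporter, fell by 1.49 (adjusted p = 0.0193), and none of 13 cholesterol synthesis genes was called. Among heart muscle genes Nppa, the atrial natriuretic peptide, rose by 1.95 and Ryr2 and Tnni3 fell by 0.82 and 0.48. Among capillary endothelium genes Emcn (1.30) and Pecam1 (0.34) rose. Of skeletal muscle genes Myh1 rose by 2.01 and Tnni2 fell by 1.22, both near 1 CPM, and of thymus genes Cd4, which macrophages can also make, rose by 1.95. No liver, lung or mesothelium gene was called at P1. Summed liver genes were between 8.60 and 19.0 CPM in adult hearts and reached 49.1 CPM in a cKO heart, thymus genes were at 3.40 CPM or less in every heart, and mesothelium and epicardium genes ran from 25.1 to 109.2 CPM. Within groups the median r with Scd1 was 0.61 for lung genes (0.33 without WT replicate 3), 0.51 for skeletal muscle (0.02), 0.36 for mesothelium (0.18), 0.30 for macrophages (0.26), 0.20 for thymus (-0.20), 0.14 for endothelium (-0.15), -0.23 for liver (-0.20) and -0.35 for heart muscle (-0.13), with the value without that heart in parentheses.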
